A study of Mus musculus with 36 samples.

Results

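The nuclear genes of the mitochondrial respiratory chain were followed across skeletal muscles of mice with and without dystrophin. The members were the probe sets whose annotation gave a single gene symbol beginning with Nduf and a letter a, b, c, s or v (complex I), equal to Sdha, Sdhb, Sdhc or Sdhd (complex II), beginning with Uqcr or equal to Cyc1 (complex III), beginning with Cox4 to Cox8 (complex IV), or beginning with Atp5 (complex V, the ATP synthase). The rule used names and no measured value. It gave 72 of the 8252 genes with a symbol of their own on the array, measured by 100 of its 12488 probe sets. Complex I had 42 probe sets, 4 of them for the assembly factors Ndufaf1 and Ndufaf4, which help to build the complex but are not part of it. Complexes II, III, IV and V had 4, 9, 23 and 22. A further 10 probe sets carried several symbols and were left out, and Cox4i2 had no member probe set.

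Complex I oxidises NADH and complex II oxidises succinate, and both pass electrons through ubiquinone to complex III, then through cytochrome c to complex IV, which reduces oxygen. Complexes I, III and IV pump protons across the inner mitochondrial membrane, and complex V uses the gradient to make ATP. In skeletal muscle slow and oxidative fibres hold more mitochondria than fast glycolytic ones, and several subunits of complex IV come as a muscle isoform and a ubiquitous isoform encoded by separate genes.

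RNA was measured on Affymetrix MG_U74Av2 arrays in 18 groups, 3 strains by 6 muscles: diaphragm, EDL (extensor digitorum longus), gastroc (gastrocnemius), quadriceps, soleus and TA (tibialis anterior). C57BL10 mice have normal dystrophin, and mdx and mdx5cv mice lack it. The labels give no allele. As background, mdx carries a premature stop in Dmd, the dystrophin gene, and mdx5cv came from chemical mutagenesis in another strain background, so that mutation and background cannot be told apart in it. All mice were males aged 8 weeks, and each sample was RNA pooled from 5 mice. Whether the 2 samples of a group came from separate pools is not given in the labels, and the p-values then measure only the spread between these samples, which may be technical.

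Of the 36 deposited columns 34 were used: mdx gastroc sample 2 equalled mdx quadriceps sample 2, and mdx5cv gastroc sample 1 equalled mdx5cv quadriceps sample 1, in all 12488 probe sets, and the gastroc copies were left out. This left 12 arrays of C57BL10, 11 of mdx and 11 of mdx5cv, so that mdx gastroc and mdx5cv gastroc each rest on 1 array. Title and source of mdx EDL sample 1 name mdx while its description names mdx5cv, and it was kept as mdx. Dmd had a signal between 368.6 and 1928 in C57BL10 (median 668.4), between 104.2 and 586.5 in mdx (median 216.5) and between 158.5 and 518.8 in mdx5cv (median 301.8). It was lower in mdx by a log2 difference of -1.50 ± 0.25 (SE, adjusted p = 1.4e-04) and in mdx5cv by -1.25 ± 0.25 (adjusted p = 0.00109), and the part of the transcript its probes cover was not checked. The markers Acta1, Ckm, Mb and Des, skeletal muscle genes, were expressed on every array, with summed signals from 121007 to 490176. The median signal of an array lay between 458 and 1026. Apart from the rest stood mdx5cv quadriceps sample 2 and C57BL10 TA sample 2, with median Spearman correlations with the other arrays of 0.769 and 0.621 against 0.835 to 0.934 for the rest. RNA integrity was read from actin, as the 3′ signal over the 5′ signal. This ratio was 0.768 ± 0.114 for the 12 C57BL10 arrays (mean ± SD), 1.10 ± 0.343 for the 11 of mdx and 1.03 ± 0.126 for the 11 of mdx5cv. The highest, 1.96, was that of mdx soleus sample 2. RNA quality and strain were thus partly confounded, and the part of RNA quality in the member differences was not tested. Scan dates were known for 30 arrays and fell into 4 periods. The first held 5 arrays of C57BL10, the second 5 of mdx and 4 of mdx5cv, and the fourth 1 of C57BL10. Only the third held all 3 strains, so strain and scan period were partly confounded. The fit with the period as a block also left out the undated arrays: C57BL10 diaphragm sample 2, C57BL10 TA sample 2, mdx TA sample 1 and mdx5cv TA sample 2. Each of their groups then rested on 1 array. C57BL10 TA sample 1, alone in its period, shared a block with the arrays of the third. Calls lost in this fit can therefore not be put down to the period alone.

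Of the 100 member probe sets, 79 (67 genes) passed the filter on dim probe sets and were tested, 32 of complex I, 4 of II, 9 of III, 14 of IV and 20 of V. The other 21 were too dim over the 34 arrays. Ndufa12, Ndufc2, Cox5a, Cox6b2 and Cox8a had no tested probe set, and Cox8a, the ubiquitous form of subunit VIII, lay at or under the floor signal of 118 on 20 of the 34 arrays. Across the 34 arrays the tested members varied with a median SD of 0.43 on the log2 scale, against 0.53 for all 7453 tested probe sets. The steadiest complex I member described here was Ndufa10, an accessory subunit, with an SD of 0.28 and signals from 1397 to 3092. Ndufb3, another accessory subunit, ranged from 4981 to 36492 (SD 0.68).

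The members moved together from array to array. For each array the median deviation of the tested members from their own means was taken on the log2 scale. It was highest in mdx TA sample 2 (0.57), C57BL10 soleus sample 2 (0.53) and C57BL10 TA sample 1 (0.45). It was lowest in mdx5cv quadriceps sample 2 (-0.55), C57BL10 TA sample 2 (-0.48) and mdx5cv diaphragm sample 1 (-0.41). The lowest and the second lowest are the arrays that stood apart. In C57BL10 TA sample 2 the deviation was -1.10 for complex II and -0.62 for complex I but -0.01 for complex V, while C57BL10 TA sample 1 gave 0.55, 0.45 and 0.38. The first percentile of signal was 217.7 on C57BL10 TA sample 2 and 142.3 on mdx5cv quadriceps sample 2, against 6 to 29.5 on the others. Complex V has dim members, such as Atp5g1 (161324_r_at, median signal 515.3), while the dimmest of complex II, Sdha, has a median of 8527. Brightness and complex can therefore not be told apart on C57BL10 TA sample 2.

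**Figure D1:**
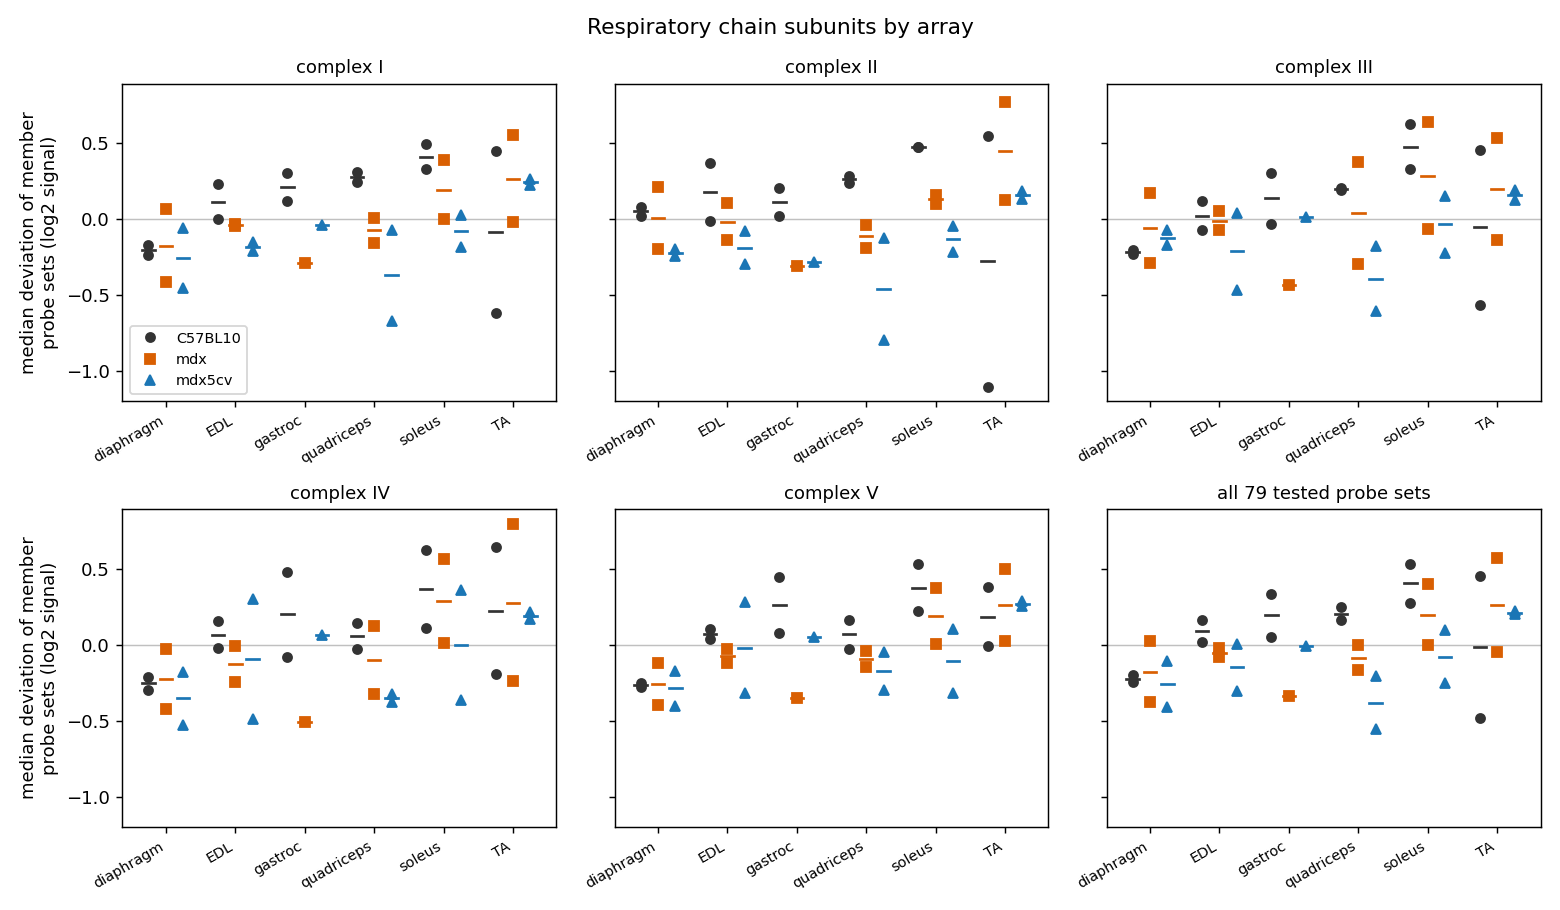
Median deviation of the member probe sets from their own means (log2 signal, y axis) on each of the 34 arrays, by muscle (x axis), with a panel for each complex and 1 for all 79 tested probe sets. Markers show the strain and short lines the group mean. C57BL10 soleus lies high and all but 1 diaphragm array lie at or below 0 over all members, and the C57BL10 TA arrays are far apart at 0.45 and -0.48.

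Over the 34 arrays the Pearson correlation of log2 signal between members of different genes had a median of 0.40 (3066 pairs, from -0.71 to 0.93). It was 0.66 within complex II (6 pairs), 0.56 within complex III (35), 0.51 within complex I (493), 0.28 within complex V (181), 0.27 within complex IV (89) and 0.38 between complexes (2262). These pairs share arrays, and with them the scaling and RNA quality of each array, and are given as a description. Probe sets of the same gene correlated with a median of only 0.31 (15 pairs). Against the mean of the other members, 19 tested probe sets had a correlation over 0.8, led by Ndufb2 and Ndufb5, accessory subunits of complex I (both 0.90), and by Atp5a1, the alpha subunit in the catalytic head of complex V, Cox7a1 and Cox8b (0.87 each). The 6 under 0 were Cyc1 (162469_r_at, -0.25), Atp5d (94279_at, -0.19), Atp5g1 (96032_at, -0.16), Cox6a1 (-0.10), Cox4i1 (93788_at, -0.03) and Ndufa1 (98117_at, -0.01). Cox6a1, the ubiquitous form of subunit VIa, is the one of these that also stood out in the comparisons of strains and of muscles.

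In mdx, Ndufa8, Ndufa10, Ndufb8, Ndufa3, Sdhb, Atp5g2 and the assembly factor Ndufaf4 were lower than in C57BL10 and Cox6a1 was higher, averaged over the 6 muscles. The folds were small, between 1.30 and 1.56. These 8 of 79 tested members (10.1%) stand beside 15.9% of all tested probe sets at the same threshold, an adjusted p under 0.05 , so the share of members called was below the background. In the lower direction alone it was 7 of 79, beside 5.82%. Of the 79, 59 had a difference below 0, and their median of -0.16 compares with -0.06 over all tested probe sets. Medians by complex were -0.15 for I, -0.04 for II, -0.21 for III, -0.16 for IV and -0.21 for V. Because muscle RNA was measured in bulk, fewer muscle fibres in a sample and less of these mRNAs per fibre cannot be told apart. Macrophage markers were higher in mdx for 9 of 9 genes, with summed signals of 21699 to 71525 against 6099 to 17030 in C57BL10, and their part in the member differences was not tested.

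Complex I held 5 of the 8 calls. Ndufa8, an accessory subunit facing the intermembrane space, had signals from 8429 to 19712 in C57BL10 (median 11123) and from 5899 to 14399 in mdx (median 8050). The ranges overlap over all muscles, but every mdx array lay below both C57BL10 arrays of its muscle in the diaphragm, EDL, gastroc and soleus. The difference was -0.56 ± 0.15 (SE, adjusted p = 0.0104), a 1.47-fold lower level. Ndufa10 had signals from 2247 to 3092 in C57BL10 (median 2661) and from 1416 to 2577 in mdx (median 2054). Every mdx array lay below both C57BL10 arrays of its muscle in 5 of the 6 muscles, and in the soleus the mdx signals of 2388 and 1712 stood beside 2535 and 2247. The difference was -0.38 ± 0.11 (adjusted p = 0.0203).

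Ndufaf4 (96756_at) had signals from 1034 to 2393 in C57BL10 (median 1467) and from 530.1 to 1710 in mdx (median 1130), and its difference was -0.57 ± 0.16 (adjusted p = 0.0128). Ndufb8, an accessory subunit of the membrane arm often used as a protein marker of assembled complex I, ranged from 11612 to 31860 in C57BL10 (median 23401) and from 11278 to 26260 in mdx (median 14820). The lowest arrays of both strains are alike in Ndufb8, and the medians are apart, with a difference of -0.54 ± 0.16 (adjusted p = 0.0244). Ndufa3, an accessory subunit, was lower by its probe set 102097_f_at (-0.65 ± 0.20, adjusted p = 0.0309), with signals from 813.4 to 2655 in C57BL10 (median 1138) and from 257.7 to 1166 in mdx (median 883.7). Its other tested probe set, 96915_f_at, gave -0.16 ± 0.17 (adjusted p = 0.565), so the 2 probe sets of Ndufa3 disagree, and the suffix _f marks probes shared within a sequence family.

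In complex II only Sdhb, the iron-sulfur subunit, was called: signals ran from 20117 to 56087 in C57BL10 (median 31068) and from 17593 to 43279 in mdx (median 22927), a difference of -0.51 ± 0.16 (adjusted p = 0.0307). The others were near 0, with Sdha, the flavoprotein subunit, at 0.05 ± 0.16, and the membrane anchors Sdhc and Sdhd at -0.03 ± 0.22 and -0.05 ± 0.14 (adjusted p of 0.871, 0.950 and 0.825). No complex III probe set passed limma's test, and none had an unadjusted p under 0.05. Uqcrc2, a core subunit, had the largest difference there (-0.32 ± 0.19, adjusted p = 0.266). In complex V, Atp5g2, 1 of the genes for the c subunit of the rotor ring, was lower (2986 to 5713 in C57BL10, median 4147, against 2049 to 4449 in mdx, median 3122; -0.39 ± 0.13, adjusted p = 0.0359). Atp5j2, a subunit of the membrane part, had a larger difference that did not pass (-0.75 ± 0.27, adjusted p = 0.0557).

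In complex IV, Cox6a1 was the member that rose, with a difference of 0.52 ± 0.14 (adjusted p = 0.0120). Its signals ran from 4668 to 13703 in C57BL10 (median 7414) and from 7128 to 25029 in mdx (median 10271). Its only tested probe set, 99631_f_at, carries the suffix _f described above, as do those used for Atp5g2 (102134_f_at) and Cox4i1 (102124_f_at). The muscle isoforms of complex IV did not pass: Cox6a2 -0.13 (adjusted p = 0.720), Cox7a1 -0.36 (0.216) and Cox8b -0.30 (0.222). The ubiquitous Cox7a2 gave -0.08 (0.754), and Cox4i1, the common form of subunit IV, -0.33 (0.216). Cox6b1 had the largest difference of the complex, -0.58 ± 0.27 (adjusted p = 0.158).

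**Figure D2:**
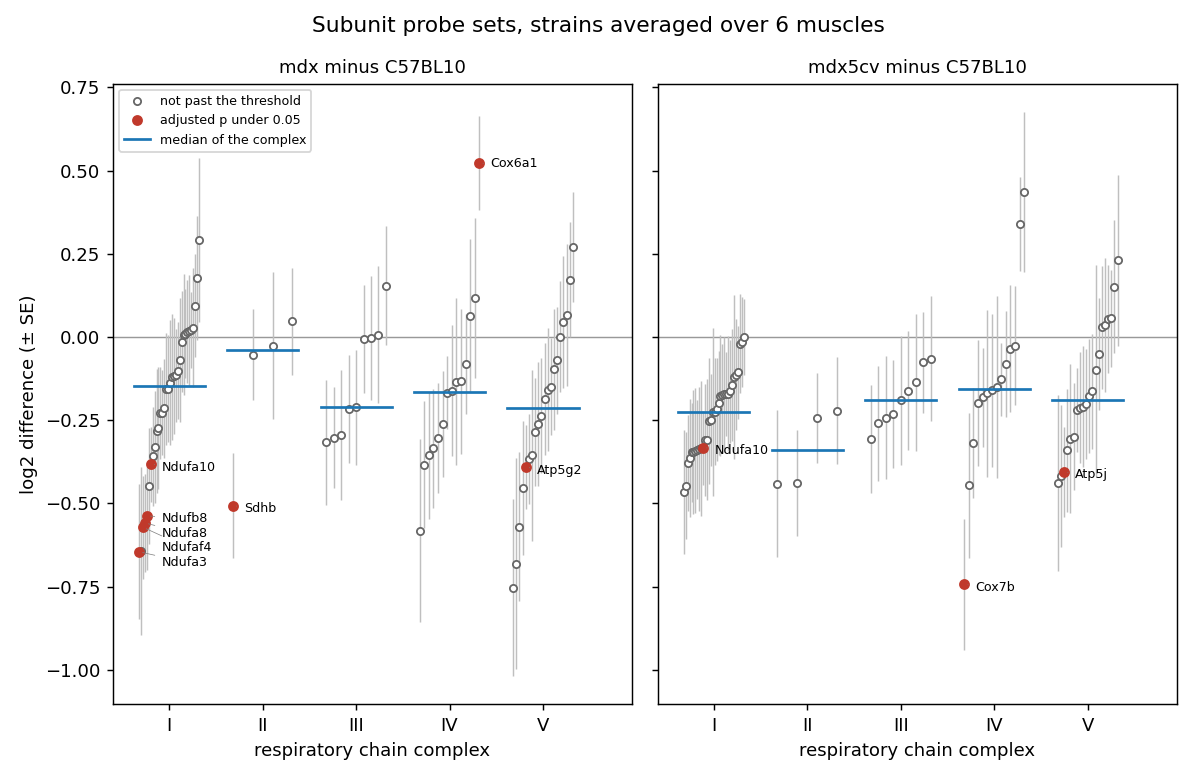
Log2 difference ± SE (y axis) of each tested member probe set for mdx and for mdx5cv against C57BL10, grouped by complex (x axis). Filled red points have an adjusted p under 0.05 and are named, open points do not, and blue lines are the median of a complex. Most points lie below 0 in both panels, 59 of 79 in mdx and 71 of 79 in mdx5cv, and Cox6a1 in mdx is the called point above 0.

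With the scan period as a block, Ndufa10, Ndufa8, Ndufaf4, Sdhb and Cox6a1 kept adjusted p-values between 0.0308 and 0.0431, while Ndufb8 (0.0875), Ndufa3 (0.182) and Atp5g2 (0.196) did not pass. In the arrays of the third period alone none of the 8 passed (Ndufa8 -0.66, adjusted p = 0.221, and Cox6a1 0.60, adjusted p = 0.249), on 4 arrays of C57BL10 and 5 of mdx. Leaving out each of 32 arrays in turn, Ndufa8, Ndufa10, Ndufaf4 and Cox6a1 passed every time. Ndufb8 did not pass without mdx diaphragm sample 1, mdx EDL sample 1 or C57BL10 soleus sample 2 (highest adjusted p 0.0551), Sdhb and Ndufa3 failed 9 times each (up to 0.0652 and 0.0734) and Atp5g2 failed 12 times (up to 0.0913). All 8 passed without the arrays that stood apart.

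In mdx5cv, Cox7b, a small accessory subunit of complex IV, Atp5j, a stalk subunit of complex V, and Ndufa10 were lower than in C57BL10, and no member was higher. These 3 of 79 (3.80%) stand beside 14.9% of all tested probe sets (4.47% in the lower direction alone). The members still lay mostly on one side: 71 of 79 differences were below 0, including all 32 of complex I, all 4 of complex II and all 9 of complex III. Their median was -0.20 against 0.02 over all tested probe sets. Medians by complex were -0.23, -0.34, -0.19, -0.16 and -0.19 from I to V. The comparison shares its C57BL10 arrays with that of mdx, so the values of both are given side by side and not as independent evidence. Macrophage markers were higher in mdx5cv too, 9 of 9 with summed signals of 25954 to 67378, and their part was not tested.

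Cox7b had signals from 14630 to 33550 in C57BL10 (median 19662) and from 6677 to 20334 in mdx5cv (median 11091). The difference was -0.74 ± 0.20 (adjusted p = 0.0104), a 1.67-fold lower level, and it passed without any 1 of the 32 arrays. The 4 mdx5cv arrays of the second scan period, at 6677 to 8096, lie below all C57BL10 arrays, while the 6 of the third period reach from 10292 to 20334 and overlap them. The 5 mdx arrays of the second period were at 13575 to 18770. With the period as a block the difference was -0.82 (adjusted p = 0.00671), and in the third period alone it was -0.59 (adjusted p = 0.165). In mdx the Cox7b signals ran up to 36974 and gave no call.

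Atp5j had signals from 15055 to 37863 in C57BL10 (median 23648) and from 12569 to 22201 in mdx5cv (median 19070; -0.41 ± 0.14, adjusted p = 0.0442). Ndufa10, called in both mutants, lay between 1397 and 2588 in mdx5cv (median 2136; -0.33 ± 0.11, adjusted p = 0.0454). Each lost its call in 18 of the 32 fits without 1 array, with adjusted p-values up to 0.102 and 0.111. Without C57BL10 TA sample 2 the median of the members was -0.28, and the calls depended on single arrays, as given below. Other subunits did not pass. In complex I the largest was Ndufb2 (95132_r_at, -0.47, adjusted p = 0.102), and in complex II Sdhc (-0.44 ± 0.22, 0.210) with Sdhb at -0.44 ± 0.16 (0.0657). In complex III it was Uqcrc1, a core subunit (-0.31 ± 0.16, 0.239), and in complex V Atp5j2 (-0.44, 0.319). Cox6a1 was at 0.34 ± 0.14 (adjusted p = 0.115), and the other complex IV isoform genes gave Cox6a2 -0.45 (0.198), Cox7a1 -0.20 (0.577), Cox7a2 -0.18 (0.502), Cox8b -0.32 (0.225), Cox4i1 -0.03 (0.958).

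**Figure D3:**
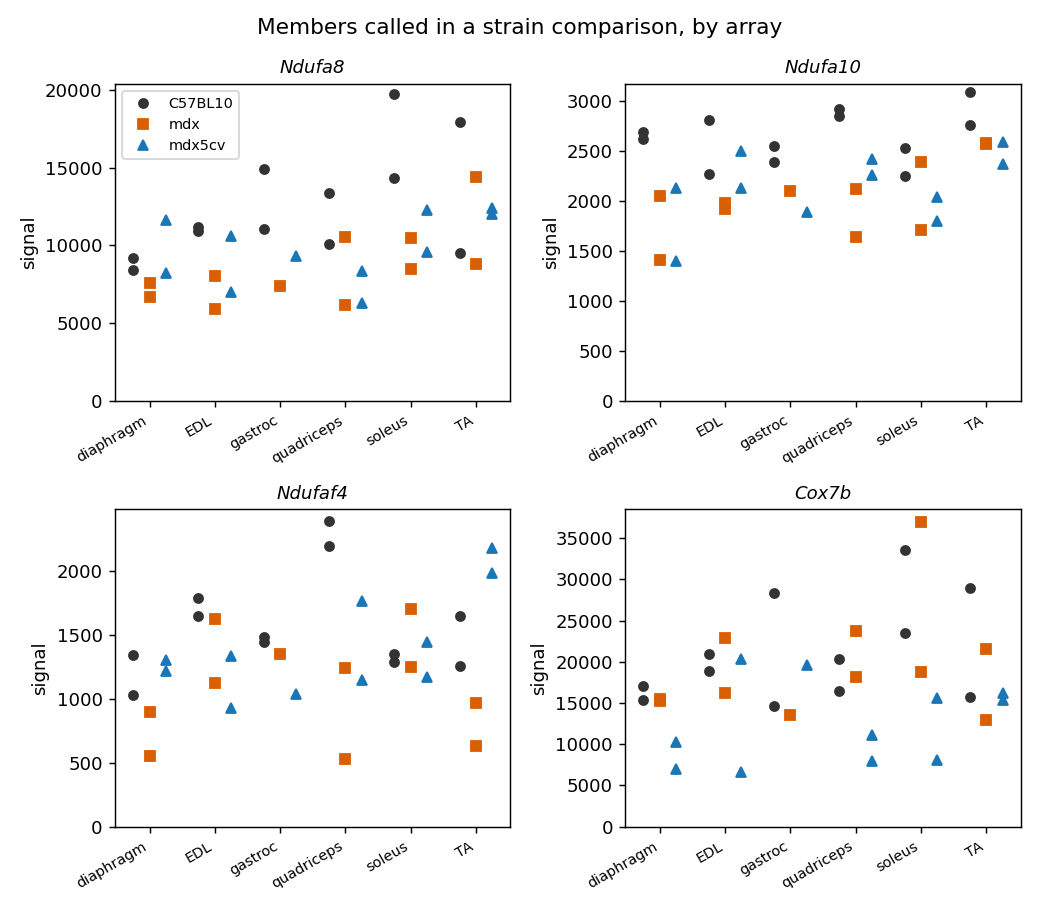
Signal (y axis) of Ndufa8, Ndufa10, Ndufaf4 and Cox7b on every array, by muscle (x axis) and strain (markers). Ndufa10 of mdx lies below both C57BL10 arrays in every muscle but the soleus, and Cox7b of mdx5cv ranges from 6677 to 20334 with its lowest values in the EDL and diaphragm.

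Between the mutants themselves no member passed limma's test (0 of 79, beside 0.523% of all tested probe sets), and 8 had an unadjusted p under 0.05. The largest difference of mdx5cv against mdx was that of Cox7b in complex IV (-0.58 ± 0.20, adjusted p = 0.343). It was Ndufa9 in complex I (-0.51, 0.370), Sdhc in II (-0.41, 0.541), Uqcr10 in III (-0.31, 0.560) and the probe set 96032_at of Atp5g1, another c subunit gene, in V (0.59, 0.467). The median was -0.03 and became 0.11 after quantile normalization, so it has no settled direction. In the EDL the slow-fibre markers of the mutants were far apart. They took 0.629% to 0.666% of the total signal in mdx5cv and 0.0784% to 0.0798% in mdx. In the C57BL10 EDL they took 0.0532% to 0.0544%, so the mdx5cv EDL stood apart from both. There 0 of 79 members passed and none had an unadjusted p under 0.05 (0.174% of all tested probe sets passed). The member median there was -0.06, and the largest difference was that of Ndufa1, a small accessory subunit of complex I (0.81, adjusted p = 0.936). The difference in the EDL less that in the other 5 muscles also gave 0 of 79, none with an unadjusted p under 0.05 (background 0.107%), with Atp5k, a small subunit of complex V, furthest from 0 (-0.82, adjusted p = 0.832).

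The change of the 2 mutants together against C57BL10 was then taken within each muscle, where it rests on 2 arrays of C57BL10. Only 2 members passed, Ndufaf4 in the quadriceps and Sdha in the TA. The background was 2.98% of tested probe sets in the diaphragm, 2.59% in the EDL, 2.25% in the gastroc, 5.41% in the quadriceps, 1.57% in the soleus and 4.32% in the TA. In the diaphragm, EDL, gastroc and soleus 0 of 79 passed limma's test, and 2, 1, 1 and 5 had an unadjusted p under 0.05. Member medians were 0.04 in the diaphragm, -0.17 in the EDL, -0.37 in the gastroc, -0.41 in the quadriceps, -0.38 in the soleus and 0.19 in the TA, with 36, 64, 77, 67, 73 and 24 of 79 below 0. A joint test of whether the change differs among the muscles called 0 of 79 members (1 with an unadjusted p under 0.05, and 0.671% of all tested probe sets passed), so the unequal medians are a description.

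Ndufaf4 in the quadriceps was at 2393 and 2202 in C57BL10, at 1245 and 530 in mdx and at 1770 and 1150 in mdx5cv. All mutant arrays were lower (-1.09 ± 0.32, adjusted p = 0.0431), but the call was lost in 18 of 32 fits without 1 array (adjusted p up to 0.265). Sdha in the TA was at 9319 and 2498 in C57BL10, at 10586 and 14568 in mdx and at 9076 and 8936 in mdx5cv. Its call (1.13 ± 0.33, adjusted p = 0.0493) rested on the low value of C57BL10 TA sample 2, without which the difference was 0.18 (adjusted p = 0.979). The whole TA median turned with that array as well, from 0.19 to -0.22 without it, and to 0.67 without C57BL10 TA sample 1. Quantile normalization gave a TA median of -0.13, while it moved the median of all tested probe sets in this comparison from 0.00 to 0.16. The direction of the respiratory chain in mutant TA was therefore not settled.

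Apart from these calls no member passed within a muscle, and the largest difference of each complex is given with its adjusted p. In the diaphragm these were Atp5j2 (-1.31, 0.261), Ndufa3 (102097_f_at, -0.69, 0.521), Cox6b1 (-0.59, 0.746), Cyc1 (95072_at, 0.36, 0.811) and Sdhc (-0.27, 0.882). In the EDL they were Cox6a1 (0.84, 0.148), Ndufa3 (102097_f_at, -0.60, 0.685), Atp5pb, the b subunit of the peripheral stalk (0.55, 0.781), Sdha (-0.48, 0.677) and Uqcrc1 (-0.25, 0.919). In the gastroc, where all members of complexes I, II and III lay below 0 on 1 array of each mutant, they were Ndufa1 (-0.97, 0.700), Atp5j2 (-0.97, 0.732), Cox8b (160851_r_at, -0.89, 0.412), Sdhb (-0.64, 0.668) and Uqcr11, a small complex III subunit (-0.52, 0.849). Of those named in these muscles Cyc1, Cox6a1 and Atp5pb lay above 0 and the others below. In the quadriceps Ndufb8 (-1.03, 0.0688) came after Ndufaf4 in complex I, and the others were Atp5g1 (96032_at, 1.26, 0.187), Uqcr11 (-0.98, 0.115), Cox4i1 (93788_at, 0.94, 0.308) and Sdhb (-0.59, 0.343). In the soleus the members with the largest differences all lay below 0: Atp5pb (-0.94, 0.533), Sdhb (-0.89, 0.271), Ndufb8 (-0.75, 0.441), Cox7b (-0.70, 0.663) and Uqcrc1 (-0.44, 0.815). In the TA they were Atp5d, the delta subunit of the central stalk (94279_at, -1.56, 0.163), Ndufa1 (-1.30, 0.146), Cox6b1 (-1.24, 0.197) and Uqcrc1 (0.59, 0.294) beside Sdha, with the TA arrays of C57BL10 far apart as described.

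The diaphragm (6 arrays) was set against the mean of the other 5 muscles (28 arrays), with equal weight for each strain. Cox6a1 rose and 13 member probe sets fell, among them probe sets of Ndufs4, Cox8b, Atp5g1 and Atp5l. These 14 of 79 (17.7%) stand beside 30.2% of all tested probe sets (18.3% in the lower direction alone). Differences were below 0 for 69 of 79, with a median of -0.25 against -0.13 over all tested probe sets. By complex the medians were -0.29 for I, -0.03 for II, -0.13 for III, -0.38 for IV and -0.24 for V, and neither complex II nor complex III had a call. Liver markers moved with this comparison: 8 of 8 tested genes were higher in the diaphragm with a median log2 difference of 5.74. The summed signal of the 9 liver markers on the array was 188687 to 661811 there (0.717% to 2.04% of the total) against 4664 to 50240 in the limb muscles, and Alb, Fgb and Ahsg were at the floor in the EDL. Their part in the member differences was not tested.

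In complex I, Ndufs4, an accessory subunit of the NADH-oxidising part, had signals from 762.6 to 1167 in the diaphragm (median 922.8) and from 1023 to 2135 elsewhere (median 1559). Of the diaphragm arrays only mdx5cv diaphragm sample 2, at 1167, reached into the range of the others, and the difference was -0.69 ± 0.14 (adjusted p = 3.7e-04). The other complex I calls were Ndufa3 (102097_f_at, -0.64, adjusted p = 0.0276), Ndufv2, a core subunit with an iron-sulfur cluster, by both its probe sets (-0.53, 0.0279 and -0.49, 0.0130), Ndufa13 (-0.51, 0.0103) and Ndufa6 (-0.45, 0.0329), both accessory subunits. In complex II all 4 lay between -0.14 (Sdha) and 0.06 (Sdhc), with adjusted p-values of 0.565 or more. In complex III the largest was Uqcrb (-0.45 ± 0.17, adjusted p = 0.0513).

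In complex V, Atp5g1 (161324_r_at) had signals from 290.8 to 389.8 in the diaphragm (median 340.4) and from 360.3 to 1774 elsewhere (median 610.5), a difference of -1.0 ± 0.21 (adjusted p = 8.2e-04). Atp5l (99678_f_at), the g subunit of the membrane part, ran from 333.0 to 754.9 against 493.1 to 1627 (-0.85 ± 0.20, adjusted p = 0.00180). The brighter probe set of Atp5l (93014_at) was not called, nor were the brighter one of Ndufa3 (96915_f_at) and the other of Atp5g1 (96032_at). Atp5pb (-0.63, 0.0465), Atp5j (-0.43, 0.0270) and Atp5g2 (-0.38, 0.0332) also fell. Cox6a1, Ndufs4, Cox8b (161205_at), Atp5g1 and Atp5l passed in all 32 fits without 1 array. Atp5pb failed in 23 of them, and with the scan period as a block it failed along with Ndufa3, Ndufv2 (162327_f_at), Atp5j and Atp5g2.

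In C57BL10 alone, 3 of 79 members passed for the diaphragm (background 16.2%): Ndufs4 (-1.06 ± 0.23, adjusted p = 0.00192), Cox8b (160851_r_at, -1.0 ± 0.30, 0.0239) and Cox6a1 (1.01 ± 0.26, 0.00711). The other probe set of Cox8b, 161205_at, did not pass (-0.86, 0.0968). Each call rests on 2 diaphragm arrays: Cox8b and Cox6a1 did not pass without either of them (adjusted p up to 0.234 and 0.104) or with the scan period as a block (0.130 and 0.0524), and Ndufs4 did not pass without sample 2 (0.0838). The median was -0.40 against -0.14 over all tested probe sets. Ndufs4 was at 899.6 and 762.6 in the C57BL10 diaphragm and between 1090 (C57BL10 TA sample 2) and 2135 (C57BL10 EDL sample 1) in the other C57BL10 muscles, with no overlap.

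**Figure D4:**
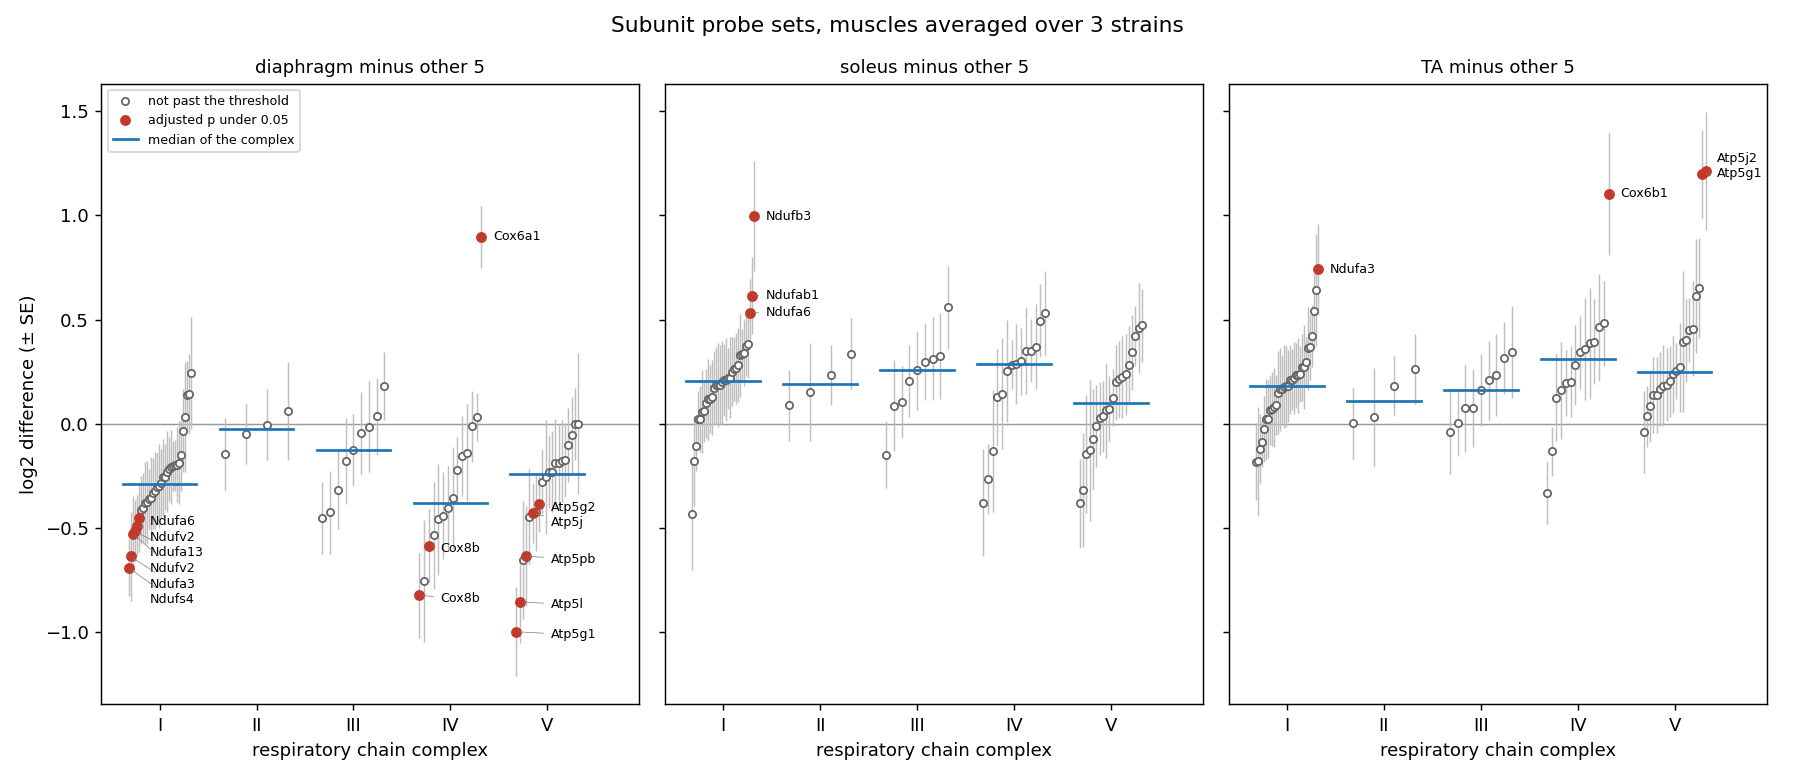
Log2 difference ± SE (y axis) of each tested member probe set for the diaphragm, the soleus and the TA against the other 5 muscles, averaged over the 3 strains and grouped by complex (x axis). Filled red points have an adjusted p under 0.05, and blue lines are the median of a complex. Most members lie below 0 in the diaphragm (69 of 79) and above 0 in the soleus (66) and TA (70), and Cox6a1 in the diaphragm is the called point on the other side.

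In the soleus, 3 complex I subunits rose against the other 5 muscles: Ndufb3, Ndufab1, the mitochondrial acyl carrier protein, and Ndufa6. These 3 of 79 (3.80%) stand beside 7.19% of all tested probe sets. The members lay above 0 in 66 of 79 cases, with a median of 0.21 against 0.00 over all tested probe sets and medians by complex of 0.20, 0.19, 0.26, 0.29 and 0.10 from I to V. Slow-fibre markers were high on all soleus arrays, with summed signals of 340101 to 732167 against 13911 to 207652 in the other muscles, and their relation to the members was not tested. Ndufb3 had signals from 24934 to 36492 in the soleus (median 29699) and from 4981 to 31631 elsewhere (median 17572). All soleus arrays lay above all other arrays of their strain in C57BL10 and mdx5cv, and in mdx the diaphragm array at 31631 lay between the soleus arrays at 31263 and 36179. The difference was 1.00 ± 0.26 (adjusted p = 0.0192). Ndufab1 ran from 23360 to 40543 against 9506 to 30301 (0.62 ± 0.18, 0.0436), and Ndufa6 from 5664 to 11163 against 2649 to 8294 (0.53 ± 0.16, 0.0414).

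Ndufb3 did not pass without C57BL10 soleus sample 2, mdx soleus sample 2 or either mdx5cv soleus array (adjusted p up to 0.0915), and Ndufa6 and Ndufab1 failed in 18 and 20 of 32 fits (up to 0.247 and 0.224). In complex III Uqcrc2 had the largest difference (0.56 ± 0.20, adjusted p = 0.103), in complex II Sdhb (0.34 ± 0.17, 0.284) and in complex V Atp5d (161145_f_at, 0.47, 0.114). For the soleus of C57BL10 alone 0 of 79 passed limma's test, with 5 at an unadjusted p under 0.05 (background 2.62%). The median was 0.37 and the largest difference that of Ndufb3 (1.14, adjusted p = 0.277).

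In the TA, Atp5j2, Atp5g1, Cox6b1 and Ndufa3 rose, 4 of 79 (background 9.93%, or 3.98% in the higher direction alone), and 70 of 79 lay above 0 with a median of 0.20 against 0.02. That median depended on single arrays: it was 0.05 without C57BL10 TA sample 1, 0.07 without mdx TA sample 2, 0.36 without C57BL10 TA sample 2 and 0.35 without mdx TA sample 1. Atp5g1 (161324_r_at) had signals from 734.4 to 1774 in the TA (median 1276) and from 290.8 to 1278 elsewhere (median 435.0), a difference of 1.20 ± 0.21 (adjusted p = 7.2e-04) that passed in all 32 fits without 1 array. Its other tested probe set, 96032_at, was not called, nor was the brighter probe set of Ndufa3, 96915_f_at. Atp5j2 ran from 429.0 to 2161 against 155.0 to 1364 (1.21 ± 0.28, 0.00805), and Cox6b1 from 1005 to 6652 against 479.3 to 5558 (1.10 ± 0.29, 0.0187). The highest values of both come from the arrays that stood apart, 6652 and 2161 in C57BL10 TA sample 2 and 5558 and 1364 in mdx5cv quadriceps sample 2. Without C57BL10 TA sample 2 Atp5j2 did not pass (adjusted p = 0.0538), nor did Cox6b1, which also failed without mdx5cv TA sample 1 (up to 0.125). Ndufa3 (102097_f_at, 0.74 ± 0.22, adjusted p = 0.0308) failed without C57BL10 TA sample 2, mdx5cv TA sample 1 or either mdx TA array (up to 0.138). With the scan period as a block Atp5j2 (0.275), Cox6b1 (0.424) and Ndufa3 (0.345) did not pass. The largest differences in complexes II and III were those of Sdhb (0.26, 0.312) and Cyc1 (95072_at, 0.34, 0.310). The complex IV isoform genes did not pass in the TA: Cox6a1 -0.33 (0.154), Cox6a2 0.16 (0.686), Cox7a1 0.48 (0.125), Cox7a2 0.19 (0.440), Cox8b 0.34 (0.206), Cox4i1 0.28 (0.339).

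The EDL, gastroc and quadriceps had 0 of 79 members past limma's test against the other muscles (backgrounds 2.59%, 1.44% and 1.53%), with 3 at an unadjusted p under 0.05 in the EDL, 2 in the gastroc and 1 in the quadriceps. The medians were near 0 (-0.04, -0.06 and -0.04). The largest differences were those of Atp5g1 (161324_r_at) in the EDL (-0.47, 0.404) and gastroc (0.77, 0.261) and of Atp5k in the quadriceps (-0.52, 0.312).

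The isoform genes of complex IV held calls in both directions in the diaphragm, Cox6a1 higher and Cox8b lower. Liver markers were also high on the diaphragm arrays, as given above, and their part in these calls was not tested. Signals of different probe sets are not comparable with each other, and only a gene's own signals are compared here. Those of Cox6a1 come from 99631_f_at, whose suffix _f marks probes shared within a sequence family. Cox6a1 was at 13616 and 13703 in the C57BL10 diaphragm, at 16002 and 25029 in the mdx diaphragm and at 11024 and 17677 in the mdx5cv diaphragm. The soleus came next, with 8899 and 11513 in C57BL10, 11124 and 15352 in mdx and 9939 and 12643 in mdx5cv. The EDL was lowest in C57BL10, with 5196 and 4668, against 9714 and 9084 in mdx and 6197 and 11139 in mdx5cv. Medians over the strains were 14852 in the diaphragm, 11319 in the soleus, 8749 in the quadriceps, 7640 in the EDL, 7489 in the TA and 7391 in the gastroc. The last 4 differ by less than their ranges.

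Cox6a1 in the diaphragm was 0.90 ± 0.15 above the other muscles on the log2 scale (adjusted p = 5.5e-05, 1.86-fold), while its muscle counterpart Cox6a2 gave -0.14 ± 0.23 (adjusted p = 0.693), with medians of 66620 in the diaphragm and 65273 to 85133 in the others. Cox8b, the muscle form of subunit VIII, fell by both its probe sets. By 161205_at it ran from 2225 to 3723 in the diaphragm (median 2763) and from 2524 to 8887 elsewhere (median 4879; -0.82 ± 0.20, adjusted p = 0.00317), and by 160851_r_at from 14803 to 24037 against 14863 to 47982 (-0.58 ± 0.18, 0.0138). Cox7a1, the muscle form of subunit VIIa, gave -0.40 ± 0.20 (0.140) and the ubiquitous Cox7a2 -0.22 ± 0.16 (0.312). Cox4i1 gave -0.15 ± 0.19 (0.581). In the soleus none of these passed: Cox7a1 0.53 ± 0.20 (0.132), Cox8b 0.49 ± 0.18 (0.10), Cox6a1 0.35 ± 0.15 (0.192), Cox7a2 0.30 ± 0.16 (0.321), Cox4i1 0.29 ± 0.19 (0.457) and Cox6a2 0.13 ± 0.23 (0.825).

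**Figure D5:**
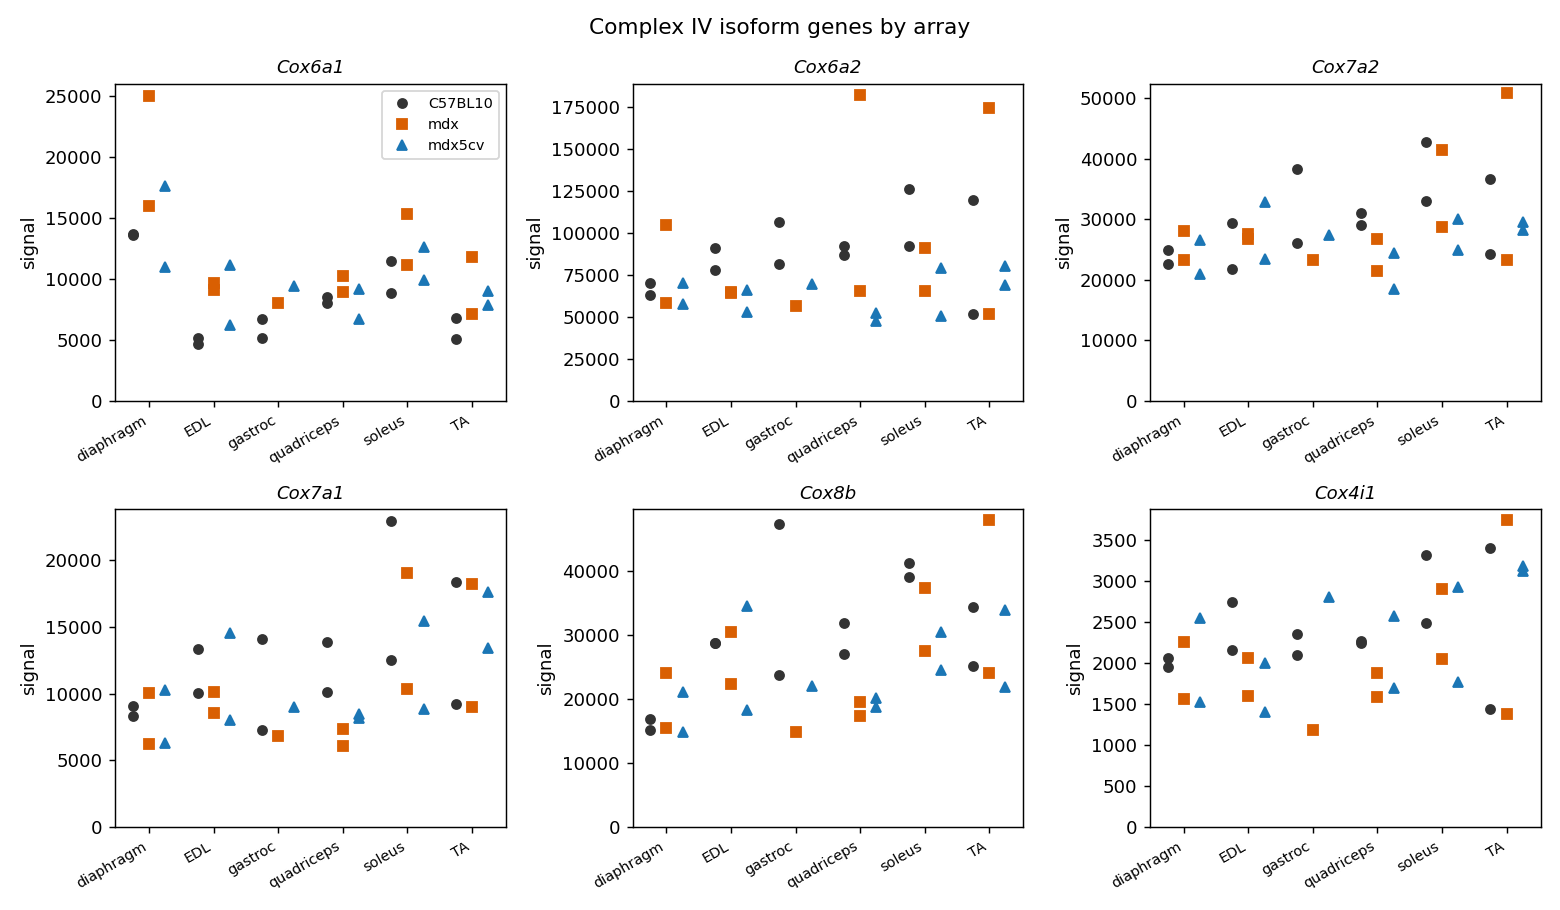
Signal (y axis, a scale for each gene) of Cox6a1, Cox6a2, Cox7a2, Cox7a1, Cox8b and Cox4i1 on every array, by muscle (x axis) and strain (markers). Cox6a1 is highest in the diaphragm (11024 to 25029), Cox8b is low there (14803 to 24037), and the ranges of all 6 genes overlap between the diaphragm and the limb muscles.

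The promoters of Cox6a1 and Cox8b are printed because these complex IV genes moved in opposite directions in the diaphragm. Each window holds 250 bases before and 50 after the gene's start (RefSeq, GRCm38.p6, minus strand, shown 5′ to 3′), and capitals mark the motifs found on either strand. The Cox6a1 window lies at chr5:115348909-115349208 and the Cox8b window at chr7:140900397-140900696.
Cox6a1: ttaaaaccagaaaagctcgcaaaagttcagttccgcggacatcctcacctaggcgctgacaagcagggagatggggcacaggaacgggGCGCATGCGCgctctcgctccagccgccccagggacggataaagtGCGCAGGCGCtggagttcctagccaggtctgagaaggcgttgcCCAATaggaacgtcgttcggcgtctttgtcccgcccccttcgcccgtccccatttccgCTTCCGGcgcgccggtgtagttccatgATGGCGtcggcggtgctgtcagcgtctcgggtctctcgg
Cox8b: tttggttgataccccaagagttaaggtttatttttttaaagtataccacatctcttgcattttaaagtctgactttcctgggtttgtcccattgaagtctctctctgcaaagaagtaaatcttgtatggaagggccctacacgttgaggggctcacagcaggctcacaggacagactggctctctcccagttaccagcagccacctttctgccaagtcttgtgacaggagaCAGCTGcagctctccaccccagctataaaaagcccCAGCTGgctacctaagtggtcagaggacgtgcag
In Cox6a1 the capitals mark the motif of NRF1 (GCGC, any base, then TGCGC) at 2 positions (the second on the other strand), CCAAT, the ETS motif bound by GABPA (CCGGAAG, here on the other strand) and the YY1 motif (ATGGCG). In Cox8b they mark 2 myogenic E-boxes (CAGCTG), and none of the other motifs searched is in that window.

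Of the 72 member genes, 58 had a promoter window. As background, NRF1, GABPA and YY1 are known to activate many respiratory chain genes. The NRF1 motif was in 12 of the 58 (20.7%) against 5.19% of all 27025 genes with a window, the ETS motif in 16 (27.6%, against 9.93%) and the YY1 motif in 14 (24.1%, against 10.2%). The E-box was in 4, those of Cox8b, Ndufa8, Ndufb10 and Ndufv2 (6.90%, against 18.3%). The ERR motif (TCAAGGTCA) was in Sdhd alone (1.72%, against 0.466%), and CCAAT in 24 (41.4%, against 41.1%). For MEF2 a loose pattern was searched, CTA and TAG with any 4 bases between them, not only A or T. It was in Cox5b alone (1.72%, against 4.23%), and its matches need not be MEF2 sites. A match is a description of the sequence and says nothing about binding.

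Other mitochondrial genes were counted beside the members, with 1 probe set a gene. The shares of all tested probe sets past the threshold, against which these counts are read, were 15.9% in mdx, 14.9% in mdx5cv, 30.2% in the diaphragm and 7.19% in the soleus. Of 12 tested genes of the citric acid cycle, which feeds complexes I and II, 1 fell in mdx and 2 in mdx5cv. Idh2, the NADP-dependent isocitrate dehydrogenase, fell in both (-0.89 ± 0.15, adjusted p = 9.98e-05, and -0.71 ± 0.15, 0.00121), and Suclg2, a succinyl-CoA synthetase subunit, fell in mdx5cv (-0.35 ± 0.12, 0.0459). In the diaphragm Idh2 rose (1.19 ± 0.16, 2.1e-06) and Idh3a, a subunit of the NAD-dependent enzyme, fell (-0.76 ± 0.15, 2.8e-04) with 2 others. In the soleus Idh2 alone rose, by 1.87 ± 0.16 (7.7e-09). The list median was -0.18 in mdx, -0.26 in mdx5cv, -0.24 in the diaphragm and 0.23 in the soleus.

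Of 16 tested electron carriers and inner membrane carriers, 2 rose and 3 fell in mdx, and 2 rose and 2 fell in mdx5cv. Atpif1, the inhibitor of complex V, rose in both (0.64 ± 0.15, adjusted p = 0.00509, and 0.54 ± 0.15, 0.0175), as did the uncoupling protein Ucp3 (0.30, 0.0431, and 0.44, 0.00309). Etfb, a subunit of the electron transfer flavoprotein that takes electrons from fatty acid oxidation, fell in both (-0.49, 0.0176, and -0.56, 0.00637). Slc25a3, the phosphate carrier, fell in mdx (-0.67, 0.0314), and Slc25a20, the carnitine carrier, in mdx5cv (-0.73, 2.4e-04). In the soleus 5 rose and none fell, led by Nnt, the proton-driven transhydrogenase (1.93 ± 0.16, 7.7e-09), with Etfdh (0.82, 0.00237) and Etfb (0.70, 0.00312). In the diaphragm 4 rose, among them Nnt (1.07) and the adenine nucleotide carrier Slc25a5 (0.93), and 6 fell, among them Ucp3 (-1.11), Vdac3, an outer membrane channel (-0.96), Slc25a3 (-0.93) and Cycs, cytochrome c (-0.71).

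Of 58 tested genes of the mitochondrial ribosome, 3 fell in mdx and 2 in mdx5cv, 12 fell in the diaphragm and 0 passed in the soleus, and none rose. Lower calls over all tested probe sets were 5.82%, 4.47% and 18.3% in mdx, mdx5cv and the diaphragm, so these counts were near or below the background. Mrpl16 fell in both mutants (-0.53, adjusted p = 0.00179, and -0.36, 0.0327). Of 7 tested regulators of mitochondrial biogenesis, Esrra, a nuclear receptor that activates respiratory chain genes, fell in mdx (-0.70 ± 0.20, 0.0175), gave -0.55 ± 0.20 in mdx5cv (0.0649) and rose in the diaphragm (0.61, 0.0328). Ppara, a receptor that activates fatty acid oxidation genes, rose in the diaphragm (1.38, 5.3e-05), and it is also expressed in liver. Of 6 tested assembly genes none passed in either mutant, and in the soleus Coq7, an enzyme of ubiquinone synthesis, rose (0.96 ± 0.15, 1.2e-04) while Iscu, the scaffold for iron-sulfur clusters, fell (-0.76).

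Among the 5628 tested genes outside the rule, those most like the mean of the members over the 34 arrays were Chchd3 (Pearson r 0.86), Acot13 (0.86), Fmc1 (0.85), Idh3g (0.84) and Mrps21 (0.84). These correlations share arrays and scaling and are given as a description.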

How the data were processed

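Per the labels and the deposited experiment files, RNA of 36 muscle samples was hybridised to MG_U74Av2 arrays. The authors deposited signal intensities on a linear scale, with a 2% trimmed mean of 1500 to 1501 on each array, by a signal algorithm not given in the sources used here. Signals under the 20th percentile of the table (118) were set to it, log2 was taken, and probe sets whose mean fell under the 40th percentile were left untested, which kept 7453 of 12422 besides controls. The means of 18 groups were estimated by limma 3.58.1 (R 4.3.3, eBayes with trend, 16 residual degrees of freedom), in which the spread of a group of 1 array is taken from the other groups. Two-sided p-values were adjusted by the method of Benjamini and Hochberg over the tested probe sets of a comparison, and 0.05 was the threshold. The script was tested on simulated data. Differences are on the log2 scale with their SE, and array numbers limit the precision.

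The members and lists were chosen with earlier results of these data known. Every called member is named, together with the largest difference in each complex and the complex IV isoform genes for each strain against C57BL10 and for the diaphragm, soleus and TA. Elsewhere the largest of each complex or, where little differed, the largest of all is given without the isoform genes. A gene is represented by its brightest probe set. Probe set names come from the platform's annotation, which can be old. Alternatives were quantile normalization, no filter, a floor at the 5th percentile, blocks for sample number and scan period (periods more than 30 days apart), the third period alone, and leaving out the EDL, the arrays that stood apart (median Spearman correlation under 0.8) or each array in turn. Figures were drawn with matplotlib 3.10.9 in Python 3.11.15.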

Additional observations from a re-analysis of the deposited data

How the results depend on the processing

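Counts of member probe sets past the threshold depended on several settings and on single arrays. Counts over all tested probe sets moved with the array left out as well, and those for the settings are not given. The swings are therefore not read as particular to the members. Against 8 for mdx, quantile normalization gave 16, leaving out the arrays that stood apart 14, leaving out the EDL 3 and the third scan period alone 0. Against 3 for mdx5cv these were 4, 9, 1 and 0, and 1 without the filter on dim probe sets. For mdx5cv against mdx the scan period as a block gave 1 in place of 0. For the mutants in the TA (1) the floor at the 5th percentile, the period block and leaving out the arrays that stood apart gave 0, and quantile normalization gave 3, of which 2 were lower. In the quadriceps (1) no filter gave 0, the period block 2 and leaving out those arrays 0, and in the diaphragm leaving them out gave 1 in place of 0. For the diaphragm against other muscles (14), quantile normalization gave 32 and leaving out those arrays 27. For the soleus (3) no filter gave 1 and the period block 6, for the TA (4) quantile normalization gave 21, and for the EDL leaving out those arrays gave 1 in place of 0. For the C57BL10 diaphragm (3) quantile normalization gave 10, leaving out those arrays 11 and the period block 1. Quantile normalization moved the median of all tested probe sets by over 0.1 in the mutant TA, as given above, and in the mutant quadriceps, from 0.01 to -0.12, where the member median went from -0.41 to -0.23. The cause of these shifts was not tested.

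Leaving out each of 32 arrays in turn gave 4 to 12 calls for mdx, 1 to 16 for mdx5cv, 6 to 20 for the diaphragm, 0 to 7 for the soleus, 2 to 9 for the TA, 0 to 9 for the C57BL10 diaphragm and 0 to 1 for the C57BL10 soleus. It gave 0 to 6 for the mutants in the quadriceps, 0 to 27 in the TA, 0 to 7 in the joint test, and 0 in all fits of the other comparisons. The mdx count fell to 4 or 5 without C57BL10 soleus sample 2, mdx EDL sample 1, C57BL10 gastroc sample 1, C57BL10 quadriceps sample 2 or mdx diaphragm sample 1. The diaphragm count fell to between 6 and 8 without mdx5cv diaphragm sample 1, mdx diaphragm sample 1 or either C57BL10 diaphragm array. The highest counts for mdx5cv and for the C57BL10 diaphragm came without C57BL10 TA sample 2, and those for the soleus and the joint test without C57BL10 TA sample 1. In these fits more of all tested probe sets passed than with every array kept. The same held for the highest counts of the mutants in the quadriceps and TA. At the lowest counts for mdx and the diaphragm fewer passed. The background moved with the members, so these counts are not read as a result about them.

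Medians of the members that moved by over 1.5 times without 1 array were, besides those of the TA given above, that of mdx (-0.16), at -0.09 without C57BL10 TA sample 1 and -0.10 without mdx TA sample 1, and that of mdx5cv (-0.20), at -0.12 without C57BL10 TA sample 1. Within muscles the mutant EDL (-0.17) went to -0.08 without mdx5cv EDL sample 1 and -0.27 without C57BL10 EDL sample 2. The mutant gastroc (-0.37) went to -0.23 without C57BL10 gastroc sample 1, and the mutant soleus (-0.38) to -0.23 without C57BL10 soleus sample 2 and -0.25 without mdx5cv soleus sample 1. The C57BL10 soleus (0.37) went to 0.22 without its sample 2. Medians within 0.1 of 0 are not listed.

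Whether the sample numbers pair the arrays was not settled: of 120 pairs of groups 47 correlated over 0.1 in their deviations (-0.362 to 0.619, median 0.0513). In the diaphragm, EDL, quadriceps and soleus every dated sample 2 was scanned in the third period and every sample 1 earlier. The number therefore partly follows the scan period. As a replicate block, the number gave 5 calls for the C57BL10 diaphragm in place of 3, 16 for the diaphragm and 6 for the TA, and it left the counts of mdx, mdx5cv and the soleus at 8, 3 and 3. Among the single probe sets named, 7986 of the alternative values kept their direction and side of the threshold. A further 271 lost a call, 46 gained one and 137 uncalled ones changed sign, and no called difference reversed. These counts pool called and uncalled values over overlapping fits, and values that stayed uncalled are among the 7986. They are therefore not a measure of how stable the calls were.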
